A study of Mus musculus with 12 samples.

Results

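The nephron segment identity genes are 34 genes that are each typical of a stretch of the kidney tubule or that direct its formation. They were taken by name, with solute carriers left out: 10 transcription factors, 13 proximal tubule genes, 3 genes of the loop of Henle or of the whole tubule and 8 genes of the distal tubule and collecting duct. Of the 34, 32 were listed in the deposited tables, which hold 17847 genes in all, and 13 had enough counts to be tested. Miox and Calb1 were not analysed here.

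The cells are mTEC, a mouse line that the study uses as renal tubular epithelium, and the study asked how fumarate hydratase (FH, mouse gene Fh1), an enzyme of the tricarboxylic acid cycle, bears on kidney fibrosis. Control cells (NC) and cells with FH silenced (KD) were sequenced under basal conditions and after stimulation with TGF-β1, a cytokine of fibrosis, with 3 libraries in each of the 4 groups NC, KD, NC+TGF-β1 and KD+TGF-β1. All 4 groups are of the same line. The labels give no silencing reagent, no passage, and no dose or time of TGF-β1, and do not say whether replicates are separate cultures, so the p-values measure a spread between libraries that may be technical.

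Each nephron segment is defined by the transport proteins its cells place in their membranes, and these are switched on by layered transcription factors. Pax2 and Pax8, paired-box factors, mark the nephric lineage from its start. Hnf4a drives the proximal tubule, Tfap2b the distal tubule, Gata3 the nephric duct and Foxi1 the intercalated cells of the collecting duct. Proximal cells take up filtered protein through megalin (Lrp2) and cubilin (Cubn), the thick ascending limb secretes uromodulin (Umod), and the collecting duct takes up water through aquaporins and sodium through the epithelial sodium channel. Tubular cells in culture are known to lose much of this mature program.

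The promoters of 4 of the genes are shown first, because these genes changed most plainly with TGF-β1 among those with 1 annotated start site: Cdh6, Emx2 and Aqp1, which rose, and Pax8, which fell. Each runs from 250 bases before to 50 bases after the start in RefSeq (GRCm38.p6), 5′ to 3′ on the gene's strand, and capitals mark the motif matches described below.
Cdh6, chr15:13173626-13173925, minus strand: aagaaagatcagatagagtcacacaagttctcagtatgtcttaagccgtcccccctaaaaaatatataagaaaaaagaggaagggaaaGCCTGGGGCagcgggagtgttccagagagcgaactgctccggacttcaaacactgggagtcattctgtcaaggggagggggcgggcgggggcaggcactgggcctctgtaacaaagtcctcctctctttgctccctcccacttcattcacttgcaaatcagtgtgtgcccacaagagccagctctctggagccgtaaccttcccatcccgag
Emx2, chr19:59458440-59458739, plus strand: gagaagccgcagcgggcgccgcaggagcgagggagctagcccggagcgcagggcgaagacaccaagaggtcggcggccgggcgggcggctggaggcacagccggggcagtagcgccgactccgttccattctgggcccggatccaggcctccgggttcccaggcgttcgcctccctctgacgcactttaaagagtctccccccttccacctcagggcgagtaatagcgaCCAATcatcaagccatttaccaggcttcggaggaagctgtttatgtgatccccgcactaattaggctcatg
Aqp1, chr6:55336049-55336348, plus strand: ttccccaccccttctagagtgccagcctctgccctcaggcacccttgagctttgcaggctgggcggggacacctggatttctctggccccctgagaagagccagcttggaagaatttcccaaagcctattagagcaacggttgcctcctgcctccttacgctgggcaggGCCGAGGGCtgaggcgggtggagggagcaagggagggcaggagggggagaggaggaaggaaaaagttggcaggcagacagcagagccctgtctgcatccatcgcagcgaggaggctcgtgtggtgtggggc
Pax8, chr2:24475550-24475849, minus strand: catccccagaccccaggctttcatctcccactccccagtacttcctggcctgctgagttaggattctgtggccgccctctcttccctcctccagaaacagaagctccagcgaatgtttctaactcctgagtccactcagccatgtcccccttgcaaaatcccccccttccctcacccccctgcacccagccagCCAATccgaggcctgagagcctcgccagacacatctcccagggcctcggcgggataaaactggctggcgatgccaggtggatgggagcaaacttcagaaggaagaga
For these, 5 short motifs were searched on both strands, and overlaps were allowed: AP-1 (TGANTCA), the SMAD palindrome (GTCTAGAC), TFAP2 (GCCNNNGGC), the TATA box (TATAAA) and the CCAAT box (CCAAT). In the promoters of Cdh6 and Aqp1 the capitals are a TFAP2 match, which starts at -162 and -81 from the start site. In those of Emx2 and Pax8 they are a CCAAT match, which starts at -21 and -57. TFAP2 matches were in 16.6% of all 32851 promoters and in 24.8% of those of tested genes, and CCAAT matches in 37.4% and 38.6%. AP-1 (7.81% of all promoters), the SMAD palindrome (0.213%) and the TATA box (13.6%) had no match in these 4. Among all 22 promoters of the tested genes of the 34, AP-1 was in 2 (Mme), against 5.37% over all tested genes. The SMAD palindrome was in 1 (Pax2, against 0.258%) and the TATA box in 2 (Ggt1 and Kcnj16, against 6.89%). A match describes the letters only. Promoters were found for 29 of the 34 genes and for 11 of the 13 tested.

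The libraries held 17651213 to 18462872 estimated counts each. Silencing left 56.4% of the Fh1 level in basal cells and 28.6% with TGF-β1. On a principal component analysis the first component (78% of the variance) separated TGF-β1 from basal libraries, and NC replicate 1 stood apart on the second (3.89%). Basal and TGF-β1 libraries come in separate tables that list different transcripts, so wherever TGF-β1 is compared with basal, an effect of TGF-β1 and one of the table, or of a separate experiment, cannot be told apart. All 10 epithelial markers were at 1 TPM (a share of transcripts that accounts for their length) or more in every group, and their summed level was 5031 to 5126 TPM in NC, 5400 to 5566 in KD, 8094 to 8302 in NC+TGF-β1 and 8575 to 8694 in KD+TGF-β1. Of 9 fibroblast markers none reached 1 TPM in NC or KD (sums 0.29 to 0.69 and 0.30 to 0.56 TPM), and the sums were 2.03 to 2.83 in NC+TGF-β1 and 2.46 to 4.65 in KD+TGF-β1. Endothelial markers summed to 0.31 to 0.56 TPM in NC and to at most 1.84 in any library, with Kdr at 0 in the basal libraries. Of 7 leukocyte markers 3 (Csf1r, Cd14 and Cd68) and of 6 podocyte markers 2 (Podxl and Synpo) were at 1 TPM or more. Of 6 thymic epithelial markers 2 were at 1 TPM or more in NC and in KD, and 3 in each TGF-β1 group. Foxn1, a transcription factor best known from thymic epithelium, was at 35.6 ± 1.03 TPM in NC (mean ± SD, n = 3), while Aire, another of these markers, was at 0. KD+TGF-β1 replicate 1 held 328 counts of 9 pluripotency markers, which were at 0 in the other 11 libraries. These 9 were listed because an earlier reading of these data had noticed them, so their pattern is no independent check.

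In control cells Cdh16, Pax8, Pax2, Mme and Emx2 were the highest of the 34 genes, and most of the others were at or near 0, Lhx1 and Gata3 of the early nephric lineage among them. Of the 34 genes, 7 stood at 10 TPM or more in NC, 3 at 1 to under 10 TPM, 11 above 0 but under 1 TPM and 11 at 0. Only 28 of the genes were listed in both deposited tables, and a gene listed in 1 table only was taken as 0 in the other. Cdh16, the kidney-specific cadherin of tubular epithelium, was the highest at 295 ± 8.46 TPM (SD, n = 3). Pax8 followed at 121 ± 1.84 and Pax2 at 62.1 ± 1.5 TPM. Mme, the endopeptidase neprilysin of the proximal brush border, was at 29.1 ± 2.77 TPM, and Emx2, a homeobox factor of the ureteric bud, at 22.5 ± 0.51 TPM. Tfap2a, an AP-2 factor, at 11.7 ± 0.677 TPM and Cdh6, a cadherin of early proximal tubule cells, at 11.3 ± 1.33 TPM overlapped between libraries. All other neighbours among the 13 tested genes were separated by library values in NC. Below them came the water channel Aqp1 (7.01 ± 0.133 TPM), Tfap2b (4.28 ± 0.342), the sodium channel subunit Scnn1a (1.23 ± 0.15), Cubn (0.633 ± 0.101) and the potassium channel subunit Kcnj16 (0.46 ± 0.0458). Lrp2, the partner of Cubn in protein uptake, had at most 1 count in an NC library.

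**Figure D1:**
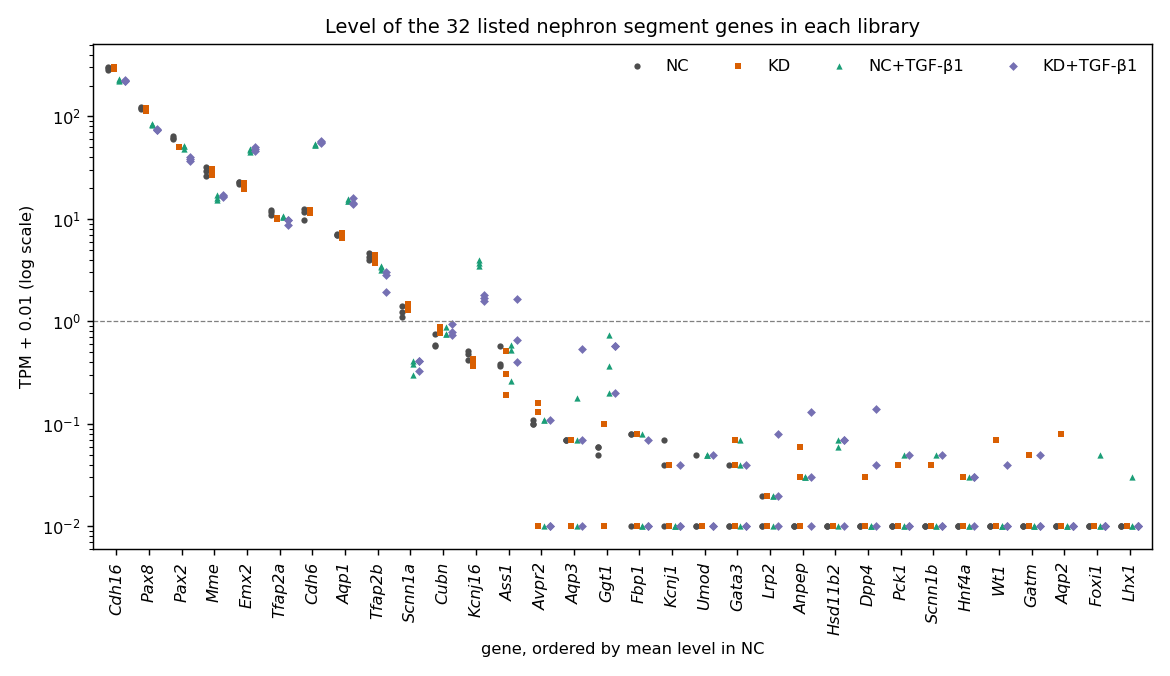
Level of the 32 listed genes in each library, as TPM + 0.01 on a log axis, with genes ordered by their mean in NC and values of 0 drawn at 0.01; the dashed line marks 1 TPM. In NC 10 genes are at or above the line, and Cdh6, Emx2, Aqp1 and Kcnj16 stand higher in both TGF-β1 groups.

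The tubular label of the cells was set beside these levels: Cdh16, Pax8 and Pax2 were high, the epithelial markers are not particular to the tubule, and the thymic epithelial markers summed to 39.7 to 41.9 TPM in NC, mostly Foxn1. Many factors and transporters of mature segments were at the limit of detection. Among transcription factors, Hnf4a, Lhx1 and Foxi1 had at most 1 count in any library and Gata3 and Wt1 (a podocyte factor) at most 2. Among proximal genes, Fbp1 and Pck1 (gluconeogenesis) and Gatm (creatine synthesis) had at most 1 count. Umod had at most 1 count, and Kcnj1, the potassium channel of the thick ascending limb, at most 2. Aqp2, Scnn1b and Hsd11b2, the enzyme that shields the mineralocorticoid receptor from cortisol-like hormones, had at most 1 count, and Avpr2, the vasopressin receptor, at most 3. A count of 3 corresponds to 0.162 to 0.17 CPM (estimated counts scaled by library size and TMM factor) in these libraries and is taken here as the limit of detection, for counting error only.

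Of the 19 listed genes too low to test, 14 had at most 3 counts in every library. The other 5 peaked in KD+TGF-β1 replicate 1: Ass1 (argininosuccinate synthase) with 25 counts, Lrp2 with 13, Aqp3 (a basolateral water channel of the collecting duct) with 9, Dpp4 with 6 and Anpep with 5 (both brush border peptidases). The summed count of the 19 genes was 65 in that library and 9 to 18 in the other 11. It is the same library that holds the pluripotency transcripts, and the part of these in the 5 values was not tested. Without it 18 of the 19 had at most 3 counts in every library, and Ass1 at most 10. No group difference is read from these genes.

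**Figure D2:**
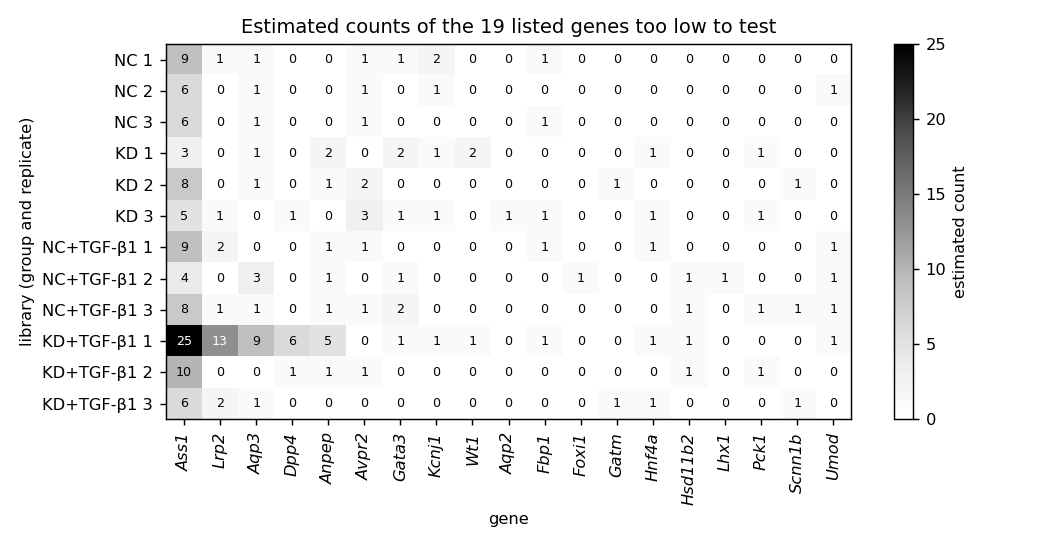
Estimated counts of the 19 listed genes too low to test, 1 row per library and 1 column per gene, with darker cells for higher counts. KD+TGF-β1 replicate 1 holds 25 counts of Ass1 and 13 of Lrp2, and 14 genes never exceed 3 counts.

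Silencing in basal cells lowered 1 of the 13 tested genes, Pax2, to 80.3% of its control level. This is 7.69% of the 13, where 3.66% of all 11707 genes tested passed (2.22% lower, 1.44% higher), by edgeR's quasi-likelihood test at a Benjamini-Hochberg adjusted p under 0.05. The median log2 change of the 13 was -0.07, against -0.01 over all genes tested. In CPM, Pax2 was at 147, 143 and 154 in NC and at 120.2, 117 and 118 in KD. All KD libraries were below all NC libraries (log2 change -0.32, SE 0.042, adjusted p = 0.000657). Without NC replicate 1, which stood apart, the log2 change was -0.32 (adjusted p = 0.000178).

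The other transcription factors moved less. Tfap2a was at 24.2, 22.5 and 26.0 CPM in NC and at 21.1, 20.04 and 21.2 CPM in KD. Its groups did not overlap, but its log2 change of -0.22 (SE 0.062) had an adjusted p of 0.0676, and it passed only when NC replicate 2 was left out (-0.27, adjusted p = 0.0449). Emx2 had a log2 change of -0.12 (SE 0.05, adjusted p = 0.219), again without overlap, and Pax8 one of -0.07 (SE 0.034, adjusted p = 0.349). For Tfap2b it was -0.08 (SE 0.09, adjusted p = 0.735). Groups did not overlap for 4 of the 13 genes, and for 22.7% of all genes tested.

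No segment marker passed in basal cells. Cubn came nearest with 4.26, 5.43 and 4.34 CPM in NC against 5.59, 5.74 and 6.44 CPM in KD, which did not overlap (log2 change 0.34, SE 0.13, adjusted p = 0.191). Cdh16 (0.01, SE 0.03), Mme (-0.03, SE 0.059), Cdh6 (0.03, SE 0.064) and Aqp1 (-0.04, SE 0.071) had the smallest log2 changes, with adjusted p from 0.838 to 0.915. Scnn1a (0.09, SE 0.148, adjusted p = 0.848) and Kcnj16 (-0.28, SE 0.192, adjusted p = 0.665) had wider errors at their lower counts. Ggt1, gamma-glutamyltransferase of the brush border, had too few counts to compare, 1 in each NC library and 0 to 2 in KD libraries.

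In TGF-β1 libraries silencing lowered 4 of the 13 genes: Pax2, Pax8, Tfap2b and Kcnj16. This is 30.8% of the 13, where 11.4% of all genes tested passed and 6.02% were lower. No gene of the 13 rose (5.42% of all genes tested did), and the median log2 change was -0.03 against 0.00 over all genes tested. Thus 3 of the 5 tested transcription factors and 1 of the 8 segment markers passed. Groups did not overlap for 6 of the 13, Cdh6 by less than the rounding of its CPM, against 32.2% of all genes tested. These are values of bulk RNA, in which fewer cells with a transcript and less of it per cell cannot be told apart.

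Pax2 was at 120.5, 114 and 121 CPM in NC+TGF-β1 and at 85.1, 94.99 and 90.5 CPM in KD+TGF-β1. The groups were apart, and the silenced cells stood at 76.1% of the controls (log2 change -0.39, SE 0.043, adjusted p = 7.34e-05). Relative to untreated control cells Pax2 was at 80.3% in each of the groups KD and NC+TGF-β1 and at 61.1% in KD+TGF-β1. Its effect of silencing did not differ detectably between basal and TGF-β1 libraries (difference -0.08 on the log2 scale, SE 0.06, adjusted p = 0.684).

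Pax8 was at 127, 129 and 123 CPM in NC+TGF-β1 and at 108, 110.0 and 113 CPM in KD+TGF-β1. The groups did not overlap, and silenced cells stood at 87.5% of controls (log2 change -0.19, SE 0.036, adjusted p = 0.00348). Tfap2b, at lower counts, was at 10.5, 10.8 and 9.94 CPM in NC+TGF-β1 and at 6.74, 8.06 and 9.20 CPM in KD+TGF-β1. All silenced libraries were below all control libraries, with a log2 change of -0.38 (SE 0.098, adjusted p = 0.0218). The call on Tfap2b was lost without any 1 of 4 libraries: NC+TGF-β1 replicate 1 (adjusted p = 0.0622) or 2 (0.0727) and KD+TGF-β1 replicate 1 (log2 change -0.27, adjusted p = 0.0838) or 2 (0.059). It was also lost with DESeq2 (-0.39, adjusted p = 0.059) and with limma on log2 TPM values (adjusted p 0.118 and 0.119). Tfap2a was lower without overlap at a log2 change of -0.18 (SE 0.064, adjusted p = 0.0848), and Emx2 had one of 0.04 (SE 0.044, adjusted p = 0.637).

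**Figure D3:**
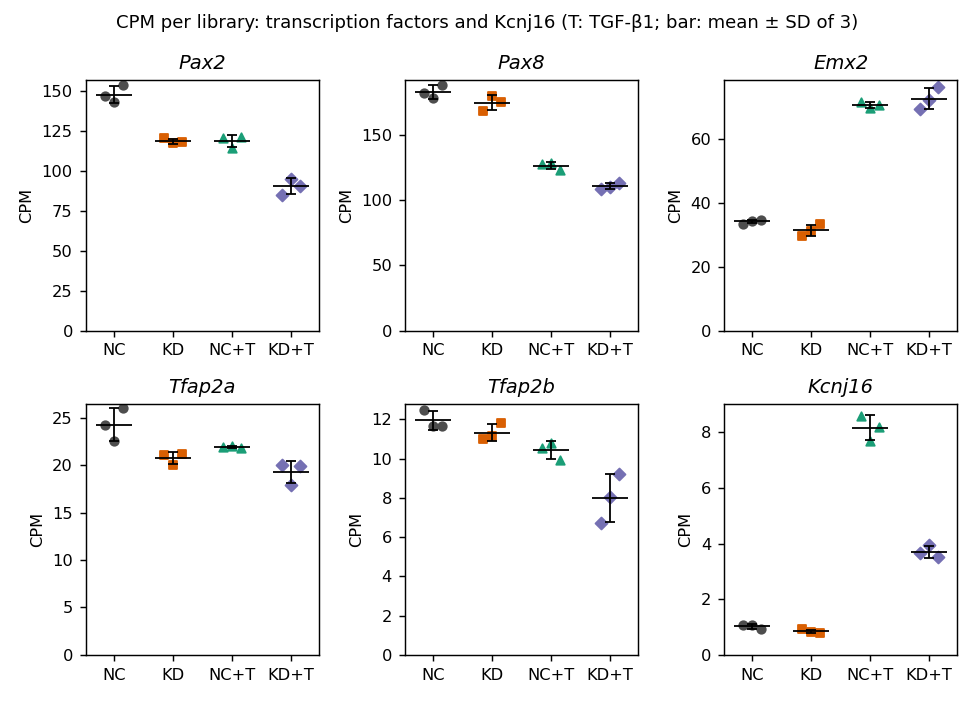
CPM in each library (points) with the mean and SD of 3 libraries for 5 transcription factors and Kcnj16; NC+T and KD+T are the TGF-β1 groups and every axis starts at 0. Pax2 is lower in KD and in NC+T than in NC and lowest in KD+T, and Kcnj16 at 8.17 CPM in NC+T falls to 3.71 CPM in KD+T.

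Kcnj16 had the largest change with silencing among the 13 genes in TGF-β1 libraries. It codes for Kir5.1, a basolateral potassium channel subunit of the distal nephron that pairs with Kcnj10. It was at 1.06, 1.09 and 0.922 CPM in NC, at 0.923, 0.812 and 0.798 in KD, at 8.61, 7.70 and 8.21 in NC+TGF-β1 and at 3.68, 3.94 and 3.51 in KD+TGF-β1. Thus both TGF-β1 groups were above both basal groups, and all KD+TGF-β1 libraries were below all NC+TGF-β1 ones. Silencing left 45.4% of the control level with TGF-β1 (log2 change -1.14, SE 0.098, adjusted p = 1e-05). TGF-β1 went with a log2 change of 2.99 in NC (SE 0.124, adjusted p = 6.68e-11) and of 2.13 in KD cells (SE 0.148, adjusted p = 1.62e-08).

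The difference between these changes of Kcnj16 was -0.86 on the log2 scale (SE 0.219) and did not pass over all genes (unadjusted p = 0.00622, adjusted p = 0.206). The basal counts behind it were 17 to 20 in NC and 15 to 17 in KD libraries. With limma on log2(TPM + 1) it passed (-0.73, adjusted p = 0.013), with log2(TPM + 0.1) it did not (-0.89, adjusted p = 0.0836). On the log2(TPM + 1) scale, which understates changes of low genes, the changes with TGF-β1 were 1.69 in NC and 0.95 in KD cells. Counts of Kcnj16 were assigned to different RefSeq transcripts in different libraries, so only the sum per gene is used.

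Without KD+TGF-β1 replicate 1, the library with pluripotency transcripts, the log2 changes with silencing were -0.35 for Pax2 (adjusted p = 0.000563), -0.18 for Pax8 (0.0193) and -1.13 for Kcnj16 (0.000144). No other segment marker passed for silencing with TGF-β1. The log2 change was 0.08 for Cdh6 (SE 0.055, adjusted p = 0.439), whose groups touched at 285.6 CPM. It was 0.06 for Mme (SE 0.064), 0.04 for Cubn (SE 0.128), -0.03 for Cdh16 (SE 0.031) and -0.05 for Aqp1 (SE 0.06), with adjusted p from 0.581 to 0.892. For Scnn1a it was 0.08 (SE 0.242, adjusted p = 0.919), and Ggt1 had 28 counts in each of the TGF-β1 groups.

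Among the markers of other cell types, Foxn1, 1 of 3 tested thymic epithelial markers, also fell with silencing in TGF-β1 libraries (log2 change -0.21, adjusted p = 0.0129). The other tested thymic epithelial markers did not pass. Lower too were 2 of 3 tested leukocyte and 2 of 2 tested podocyte markers, where 6.02% of all genes tested were lower. Of 2 tested fibroblast and 2 tested endothelial markers none passed. Summed levels were 76.1 to 80.0 TPM in NC+TGF-β1 and 63.8 to 69.2 in KD+TGF-β1 for leukocyte markers. For podocyte markers they were 41.7 to 42.5 and 34.6 to 36.1 TPM, and for thymic epithelial markers 29.1 to 30.01 and 24.7 to 27.5 TPM. The part of these in the lower Pax2, Pax8, Tfap2b and Kcnj16 was not tested.

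Sites in the 3′ UTRs of Pax2 and Tfap2b are shown because an earlier reading of these data found 4 words of 7 bases in the 3′ UTRs of genes lower in silenced cells. The first is TCTACAC, the next are CTACACA, shifted by 1 base to the right, and TTCTACA, shifted by 1 base to the left, and the last is GACACCT. Positions are on GRCm38 with the longest annotated 3′ UTR of GENCODE M21, both genes are on the plus strand, and capitals mark the word.
Pax2, chr19:44837082-44837111: aaaaaaaaaagTCTACACttatttaatatg
Pax2, chr19:44836794-44836823: gctcatcccacGACACCTtgtgtttggtcc
Pax2, chr19:44837451-44837480: atggtcccgtgGACACCTctcgcctgtttt
Tfap2b, chr1:19237875-19237904: cttccaactttTCTACACacttcgttcatg
Of the 13 tested genes, Pax2, Tfap2b and Mme held any of the 4 words (23.1%), against 28.3% of 11285 tested genes with an annotated 3′ UTR. Tfap2b also held CTACACA at chr1:19235400-19235429, and CTACACA and TTCTACA overlap its TCTACAC site. Mme, which did not pass for silencing, held TTCTACA. These further sites are not printed. TCTACAC was in 2 of the 13, Pax2 and Tfap2b, and in 7.67% of tested genes. Pax8 and Kcnj16, which also were lower in silenced cells, and the other 8 held none. Since the words were picked from genes that fell, their presence in genes that fell supports nothing by itself, and their part in these changes was not tested.

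TGF-β1 libraries differed from basal ones in most of the 13 genes, in both directions and in both control and silenced cells. In NC 10 of the 13 passed (76.9%, against 64.2% of all genes tested), 5 higher (29.4% of all genes tested) and 5 lower (34.7%). In KD 11 passed (84.6%, against 65.1%), 5 higher (31.4%) and 6 lower (33.7%), and the 10 genes of the NC comparison passed in the same direction. Ggt1 is counted among the higher genes in both, although the low-count filter kept it only through its TGF-β1 libraries. Median log2 changes were -0.15 in NC and -0.11 in KD, against -0.03 and -0.01 over all genes tested. Groups did not overlap for 12 of the 13 in either comparison (65.9% and 72.9% of all genes tested).

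Of the proximal genes Cdh6, Aqp1 and Ggt1 rose and Mme fell. Cdh6 was at 65.6, 60.9 and 52.6 CPM in NC, 59.6, 59.1 and 64.5 in KD, 276, 286 and 272 in NC+TGF-β1 and 295, 286 and 297 in KD+TGF-β1. The basal and the TGF-β1 groups were far apart, at 4.65-fold in NC (log2 change 2.22, SE 0.061, adjusted p = 7.42e-13) and 4.79-fold in KD cells (2.26, SE 0.061, adjusted p = 6.61e-13). On the TPM scale Cdh6 thereby moved above Mme, Emx2 and Pax2, which were higher in NC, to 53.0 ± 0.768 TPM in NC+TGF-β1. Aqp1 was at 11.8, 11.2 and 11.6 CPM in NC, 11.2, 11.8 and 10.7 in KD, 24.3, 24.7 and 25.5 in NC+TGF-β1 and 22.6, 25.8 and 23.4 in KD+TGF-β1. It rose 2.16-fold in NC and 2.13-fold in KD cells (log2 change 1.11, SE 0.065, adjusted p = 2.7e-09, and 1.09, SE 0.065, adjusted p = 3.3e-09).

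Ggt1 was low throughout. It had 1 count in each NC library, 0, 0 and 2 in KD, 8, 4 and 16 in NC+TGF-β1 and 12, 12 and 4 in KD+TGF-β1. The ratio of TGF-β1 to basal libraries was 9.46 in NC (95% exact interval 2.92 to 48.6) and 14.2 in KD cells (3.59 to 123), intervals that cover counting error only. By edgeR both passed (adjusted p = 0.00441 and 0.00247). However, Ggt1 was kept by the low-count filter only through its TGF-β1 libraries, the groups where it is high. These calls are therefore no independent support for a rise. Without KD replicate 3 the basal silenced group had no count, and the fitted log2 change went from 3.65 to 6.27, a value that then depends on the prior count.

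Mme was at 119.7, 107 and 101 CPM in NC, 101, 106 and 113 in KD, 63.0, 57.4 and 58.9 in NC+TGF-β1 and 61.4, 61.0 and 64.5 in KD+TGF-β1. All TGF-β1 libraries were below all basal ones, with log2 changes of -0.87 in NC (SE 0.062, adjusted p = 2.09e-08) and -0.78 in KD cells (SE 0.061, adjusted p = 6.36e-08). Cubn had a log2 change of 0.30 in NC (SE 0.132, adjusted p = 0.0617) and 0.00 in KD cells (adjusted p = 0.993). It passed in NC with the size factors of DESeq2 (0.33, adjusted p = 0.0431) and without NC replicate 2 (0.42, adjusted p = 0.0194) or KD+TGF-β1 replicate 2 (adjusted p = 0.0445).

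**Figure D4:**
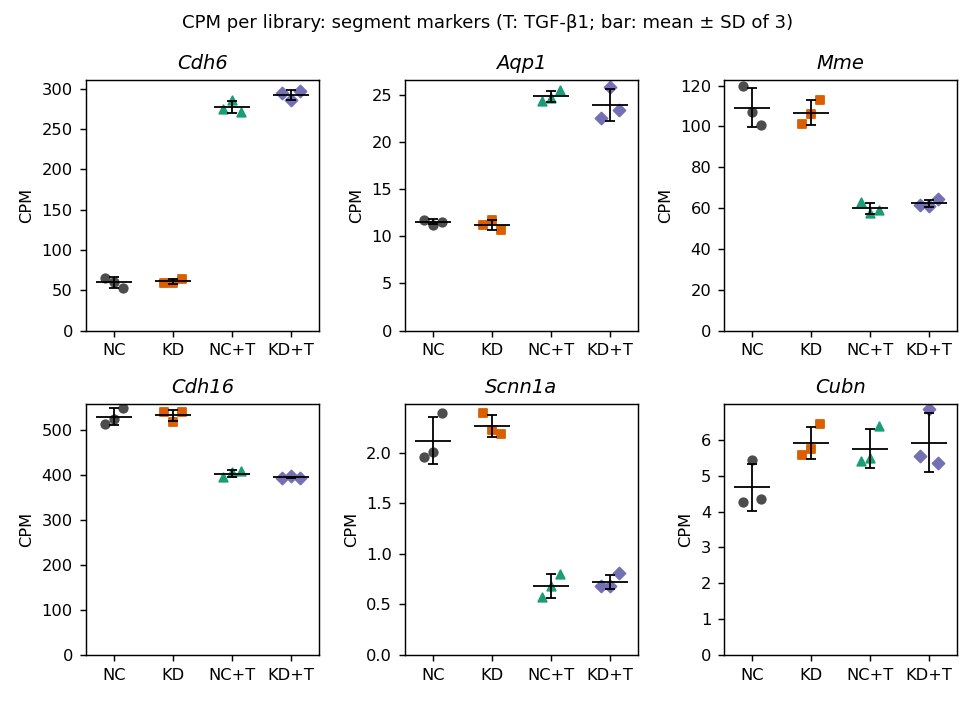
CPM in each library (points) with the mean and SD of 3 libraries for 6 segment markers; NC+T and KD+T are the TGF-β1 groups and every axis starts at 0. Cdh6 and Aqp1 are higher and Mme, Cdh16 and Scnn1a lower in both TGF-β1 groups. The KD and NC points lie close together in each setting, except for Cubn, whose basal KD points lie above those of NC.

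Of the markers of the loop, whole tubule, distal tubule and collecting duct, Cdh16 and Scnn1a fell and Kcnj16, described above, rose. Cdh16 was at 512, 525 and 549 CPM in NC, 539.5, 518 and 539.5 in KD, 395, 406 and 408 in NC+TGF-β1 and 394, 396 and 392 in KD+TGF-β1. It stayed the highest of the 13 genes in TPM, at 226 ± 3.41 in NC+TGF-β1 and 222.5 ± 1.88 in KD+TGF-β1, and its log2 changes were -0.39 (SE 0.03, adjusted p = 5.64e-08) and -0.43 (SE 0.03, adjusted p = 1.85e-08). Scnn1a, the alpha subunit of the epithelial sodium channel, was at 1.96, 2.01 and 2.39 CPM in NC, 2.39, 2.22 and 2.18 in KD, 0.570, 0.679 and 0.804 in NC+TGF-β1 and 0.680, 0.686 and 0.805 in KD+TGF-β1, from 10 to 44 counts. The TGF-β1 groups stood at 0.323 and 0.32 times the basal level, with log2 changes of -1.62 in NC (SE 0.192, adjusted p = 4.48e-06) and -1.64 in KD cells (SE 0.187, adjusted p = 3.02e-06). On the log2(TPM + 1) scale these were -0.72 and -0.78.

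Of the transcription factors Emx2 rose, Pax2 and Pax8 fell, and Tfap2b fell in silenced cells. Emx2 was at 33.4, 34.4 and 34.5 CPM in NC, 29.7, 31.1 and 33.2 in KD, 71.6, 69.7 and 70.4 in NC+TGF-β1 and 69.5, 72.1 and 76.1 in KD+TGF-β1. The rise was 2.07-fold in NC (log2 change 1.05, SE 0.047, adjusted p = 1.36e-10) and 2.32-fold in KD cells (1.21, SE 0.047, adjusted p = 3.03e-11). Pax8, at 182, 178 and 188 CPM in NC and 168, 180.0 and 175 CPM in KD, had log2 changes of -0.53 in NC (SE 0.035, adjusted p = 9.31e-09) and -0.66 in KD cells (SE 0.035, adjusted p = 9.8e-10). For Pax2 they were -0.32 (SE 0.042, adjusted p = 1.31e-05) and -0.39 (SE 0.043, adjusted p = 1.87e-06).

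Tfap2b was at 12.5, 11.7 and 11.7 CPM in NC and at 11.02, 11.2 and 11.8 CPM in KD. Its log2 change with TGF-β1 was -0.19 in NC (SE 0.092, adjusted p = 0.0781), a value that passed with limma on log2(TPM + 1) (adjusted p = 0.0424) and without KD+TGF-β1 replicate 1 (0.0368) or 3 (0.0471), and -0.50 in KD cells (SE 0.096, adjusted p = 0.000375). Tfap2a had log2 changes of -0.15 (adjusted p = 0.0543) and -0.11 (adjusted p = 0.162). The first passed with limma (adjusted p 0.044 and 0.0447), with the replicate number as a block (0.0423) and without NC replicate 2 (-0.20, 0.0178) or KD+TGF-β1 replicate 2 (0.0449).

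Whether silencing acted differently with and without TGF-β1 was tested as an interaction. None of the 13 genes passed by edgeR or DESeq2, where 0.888% of all genes tested did by edgeR (0.47% with a more positive change and 0.419% with a more negative one in TGF-β1 libraries). Limma on log2(TPM + 1) called Kcnj16, as given above. At an unadjusted p under 0.05, which 11.3% of all genes tested had, there were 4 (30.8%): Kcnj16, Pax8 (-0.13, SE 0.05, adjusted p = 0.331), Tfap2b (-0.31, SE 0.133, adjusted p = 0.401) and Emx2 (0.16, SE 0.066, adjusted p = 0.359). The effect of silencing on Pax8, Tfap2b and Kcnj16, which passed with TGF-β1 only, is thus not shown to differ between the settings.

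**Figure D5:**
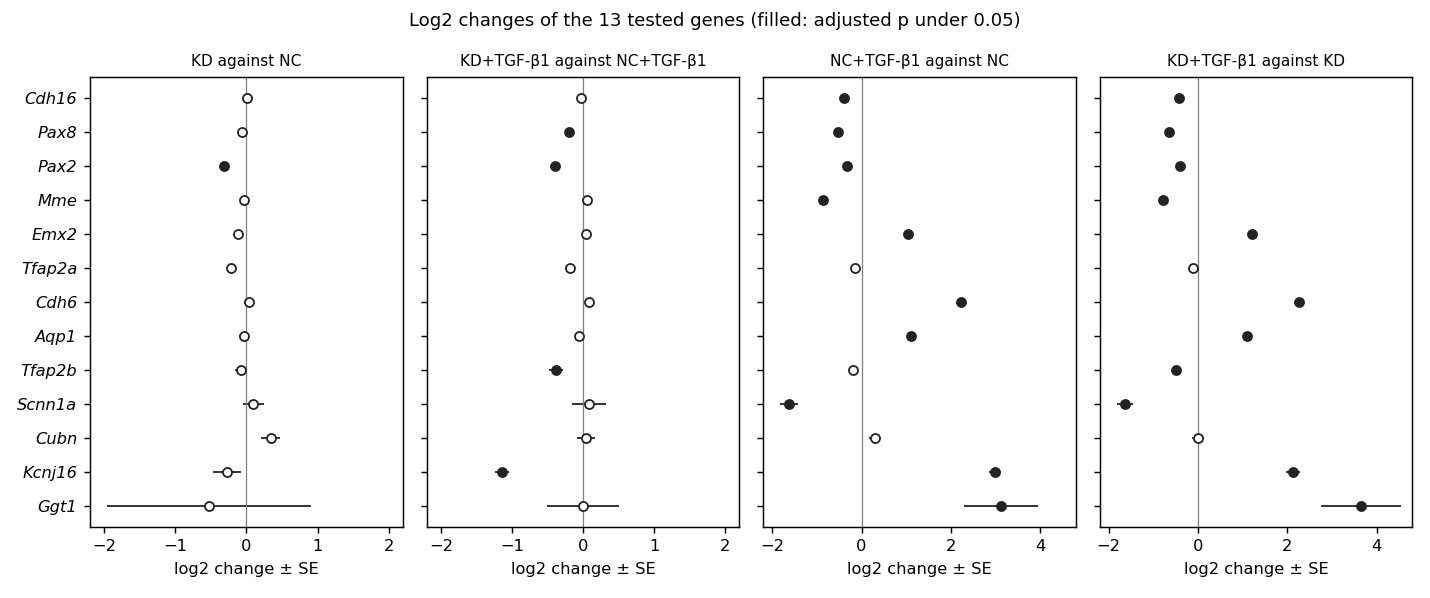
Log2 change (point) and its SE (bar) of the 13 tested genes in the 4 comparisons, with filled points at an adjusted p under 0.05 by edgeR; the axis is wider for the comparisons of TGF-β1 with basal libraries. Filled points for silencing are all on the lower side (1 basal, 4 with TGF-β1), and those for TGF-β1 lie on both sides.

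A further 133 genes of the same segments and of kidney development give the surroundings of the 34. In NC 4 of 32 further proximal genes, 6 of 29 genes of the loop and distal tubule, 18 of 33 of the collecting duct and 24 of 39 of kidney development were at 1 TPM or more, and 60 of the 133 were tested. Silencing in basal cells raised 2 of the 60 (3.33%, near the 3.66% of all genes tested), Krt8 and Krt19, keratins of simple epithelia, named here after their values were seen. Krt8 had a log2 change of 0.17 (SE 0.026, adjusted p = 0.0026). Krt19 had one of 0.12 (SE 0.03, adjusted p = 0.0479), a call lost in 14 of 20 alternatives, among them without NC replicate 1 (0.10, adjusted p = 0.121).

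With TGF-β1, silencing changed 6 of the 60 (10%, near the 11.4% of all genes tested), 2 lower and 4 higher. Nr3c2, the mineralocorticoid receptor, went from 1.99 ± 0.164 to 1.14 ± 0.265 CPM (SD, n = 3; log2 change -0.80, SE 0.184, adjusted p = 0.0127), and the call was lost without KD+TGF-β1 replicate 2 (-0.63, adjusted p = 0.0959) and with limma on log2(TPM + 1) (-0.24, adjusted p = 0.0831). Wnk4, a kinase that controls sodium chloride uptake in the distal tubule, went from 8.80 ± 0.529 to 6.49 ± 1.04 CPM (-0.44, SE 0.107, adjusted p = 0.0173), and was lost without NC+TGF-β1 replicate 1 (0.0686) or KD+TGF-β1 replicate 3 (0.0632). Krt18 (0.19, adjusted p = 0.0047) and Krt8 (0.13, adjusted p = 0.00494) rose.

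A further pair of collecting duct genes was higher in the silenced TGF-β1 libraries with calls that rested on single libraries. Atp6v0a4, a proton pump subunit of intercalated cells, had a log2 change of 0.53 (SE 0.154, adjusted p = 0.0401), which was lost in 10 of 20 alternatives: without any KD, any KD+TGF-β1, or NC+TGF-β1 replicate 2 or 3 (0.42 to 0.59, adjusted p 0.0515 to 0.151), and with DESeq2 (0.102) and limma on log2(TPM + 1) (0.0511). Hoxb7, a homeobox gene of the collecting duct lineage, had one of 0.22 (SE 0.059, adjusted p = 0.0297), lost with the replicate block (0.0537), without any NC+TGF-β1 library and without KD+TGF-β1 replicate 2 or 3 (0.0573 to 0.136). None of the 60 passed the interaction by edgeR, and 9 had an unadjusted p under 0.05 (15%, against 11.3% of all genes tested).

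Between TGF-β1 and basal libraries 46 of the 60 differed in NC (76.7%, against 64.2% of all genes tested, with 25 higher and 21 lower). In KD cells 50 did (83.3%, against 65.1%, with 27 higher and 23 lower). Among the larger changes in the lists were those of Nox4 (an NADPH oxidase of proximal cells, log2 change 2.45 in NC and 2.26 in KD cells), Gpx3 (secreted glutathione peroxidase, 2.30 and 1.35), Irx1 (a homeobox gene of the tubule, 2.15 and 2.03) and Wnk4 (-2.46 and -2.73). Among collecting duct genes Car2 (carbonic anhydrase, -1.99 and -1.31), Nr3c2 (-1.80 and -2.45) and Muc1 (a membrane mucin, -1.65 and -1.86) fell. Of the development genes Jag1, a Notch ligand, rose from 46.6 ± 1.10 to 144.7 ± 1.79 TPM in NC (1.62, and 1.59 in KD cells), Gdnf, the inducer of ureteric branching, rose at low counts (1.70 and 1.74), and Wnt4 fell (-1.33 and -1.56). Trpm6, a magnesium channel of the distal tubule, rose as well (1.19 and 1.09). Trpm6, Nox4, Gpx3 and Gdnf all rose from under 1 TPM, Gpx3 from 0.497 TPM in NC and 0.697 in KD. The adjusted p of these named genes were at most 0.00608. Nox4 had at most 4 counts in an NC and 5 in a KD library. The low-count filter kept it through its TGF-β1 libraries, so its call is no independent support for a rise.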

How the data were processed

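RNA was sequenced from 12 libraries of mTEC cells in 4 groups of 3. Tools in the submitters' processing notes are RSEM 1.3.1, HISAT2, Bowtie2 and DESeq2 1.34.0, with no role given. The build in these notes, hg38, is human although the cells are mouse. Coordinates here are therefore only those of RefSeq and GENCODE on GRCm38. The deposited tables, 1 for basal and 1 for TGF-β1 libraries, hold estimated counts per RefSeq transcript, not normalized, per the file headers. They also hold TPM, which the authors' files scale to the same sum in each library. FPKM and normalized columns were not used.

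Both were summed over the transcripts of a gene (Entrez ID), the counts were rounded, and edgeR 4.0.16 (R 4.3.3) was fitted to the 15802 genes in both tables (normalization by TMM, low counts removed by filterByExpr, 1 coefficient per group, quasi-likelihood tests, Benjamini-Hochberg adjustment over the 11707 genes left). Levels of different genes are compared in TPM and differences between groups in CPM. Each SE is that of the fitted log2 change. The alternatives used DESeq2 1.42.0 and limma 3.58.1 (at least 1 TPM in 3 libraries). On simulated data the fit recovered 70% of 200 genes changed 1.25-fold and 92% of those changed 1.5-fold for silencing in basal cells.

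The 34 genes, the further lists and the tests were chosen with earlier results of these data known. All 34 genes are accounted for. Of each further list, up to 3 called genes with the largest log2 change in the comparisons of silencing, and up to 3 in those of TGF-β1, are named. A gene that this rule takes is not reported here. Library totals were 17651213 to 18462872 estimated counts, and genes with few counts are the least precise.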

Additional observations from a re-analysis of the deposited data

Results flagged for a closer look

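The loss of the targeted transcript differed between the settings. The change of Fh1 with silencing was -0.83 on the log2 scale in basal libraries and -1.81 in TGF-β1 libraries, and the difference was -0.98 (SE 0.069, adjusted p = 8.18e-06, edgeR). The effects of silencing on the 34 genes in the 2 settings therefore belong to different residual levels of Fh1, 56.4% and 28.6%.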

How the results depend on the processing

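Of 26 called changes among the 13 tested genes, 25 kept their direction and call in each of 20 alternatives that could test them, and that of Tfap2b with silencing in TGF-β1 libraries did not. The 26 include the changes of Ggt1 with TGF-β1, a gene that the low-count filter kept only through its TGF-β1 libraries. Of 39 changes not called, 5 gained a call in an alternative and 11 turned sign. Of 35 called changes of the further genes named, 28 kept their call. Silencing in basal cells called 1 of the 60 further genes, not 2, with the size factors of DESeq2, without a low-count filter, with the replicate block and with only the groups compared. With only the groups compared 151 of all genes passed there, not 429. DESeq2 called 871 genes for silencing with TGF-β1, not 1340. For the interaction limma on log2(TPM + 1) called 1 of the 13 genes, Kcnj16.

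The same replicate numbers occur in all groups, and the labels do not say whether they pair the libraries. Of 18 same-numbered pairs none correlated above 0.1 in their deviations (-0.105 to 0.073), and different-numbered pairs ranged from -0.173 to 0.145. With deviations from means of 3 libraries this cannot decide whether libraries are paired. With the replicate number as a block, 54 and not 104 of all genes passed the interaction, and besides those of Tfap2a (TGF-β1 in NC), Hoxb7 and Krt19 (silencing) no call of a named gene changed.

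When each library was left out in turn, the number of the 13 genes called was 1 to 2 for silencing in basal cells and 3 to 4 with TGF-β1. For the 60 further genes it was 1 to 3 and 3 to 8 (3 without KD+TGF-β1 replicate 2). Over all genes it was 212 (without KD replicate 1) to 641, 787 (without KD+TGF-β1 replicate 3) to 1728, and 38 (without KD replicate 2 or KD+TGF-β1 replicate 3) to 147 for the interaction. Changes that turned sign ranged, for silencing in basal cells, from -0.074 to 0.039 for Mme, -0.027 to 0.106 for Cdh6 and -0.013 to 0.061 for Cdh16. With TGF-β1 they ranged from -0.08 to 0.12 for Cubn, -0.36 to 0.63 for Ggt1 and -0.035 to 0.209 for Scnn1a. For TGF-β1 in KD cells Cubn ranged from -0.12 to 0.066, and it was 0.012 with the size factors of DESeq2, 0.013 with DESeq2 and 0.004 with only the groups compared. Interactions ranged from -0.04 to 0.089 for Tfap2a, -0.075 to 0.026 for Aqp1, -0.029 to 0.103 for Cdh6 and -0.133 to 0.115 for Scnn1a. None of these passed in any alternative; the causes were not tested. Depth limits Ggt1 and the 19 untested genes.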
